A study of Mus musculus with 21 samples.

Results

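The p53 target genes described here are 9 genes chosen by symbol: Trp53, which encodes p53 itself, its inhibitor Mdm2, and the targets Cdkn1a, Ccng1, Trp53inp1, Bbc3, Bax, Eda2r and Phlda3. A gene was measured by a probe set that carries its symbol alone, and where a gene had several, the one with the highest mean over all arrays stood for it. By this rule 7 of the 9 genes were measured, each by 1 probe set, out of 22179 genes with such a probe set. Trp53 and Bax had no probe set of this kind and were not analysed here.

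The lungs came from 21 wild type Balb/c fetuses at E18.5 (embryonic day) and were hybridised to 1 array each. Dams of 12 fetuses (6 males and 6 females) inhaled mainstream cigarette smoke (CS) from gestational day 2.5 to 17.5, and those of 9 fetuses (5 males and 4 females) are labelled untreated and received filtered air (AIR) by the exposure protocol. RNA of the whole lung was taken 1 day after the last exposure. One male and one female were chosen per litter, but which fetuses are littermates is not stated, so p-values treat the fetuses as independent and may be too small. Animal numbers in the labels fall into a lower range, from M121 to M207 (8 CS and 3 AIR), and a higher range, from F301 to M447 (4 CS and 6 AIR), where the letter gives the sex. What the ranges stand for is not stated, and exposure is spread unevenly over them.

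p53 is a transcription factor that is kept scarce by Mdm2, a ubiquitin ligase, and is stabilised when DNA is damaged or a cell is stressed. It then binds response elements, made of a pair of short inverted repeats, near genes that halt the cell cycle, assist repair or start cell death. Cigarette smoke carries DNA-damaging agents, and the transcripts of p53 targets are commonly read as a sign of p53 activity. In whole lung, fewer cells of a type and less RNA per cell cannot be told apart.

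The response element was looked for by its published consensus of 20 positions without a spacer, which reads the same on both strands, in windows from 250 bases before to 50 bases after the start of each gene (RefSeq, build GRCm38.p6). Windows were given for 6 of the 7 measured genes, and none for Trp53inp1. Stretches are shown for the 3 measured genes with a window that held a match of 19 of 20 positions or an exact single repeat. Capitals mark the matched element in Cdkn1a and Ccng1, and a single repeat of it in Mdm2.
Cdkn1a: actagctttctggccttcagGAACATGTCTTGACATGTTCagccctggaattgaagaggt
Ccng1: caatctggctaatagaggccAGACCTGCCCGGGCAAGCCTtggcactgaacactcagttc
Mdm2: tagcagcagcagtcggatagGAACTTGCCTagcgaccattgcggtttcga
The Cdkn1a stretch lies in the window chr17:29090729-29091028 on the plus strand, matches 19 of 20 positions and begins 51 bases before the start used there. Cdkn1a has a further window at another start, chr17:29093519-29093818, whose best match was 15 of 20 positions, with no exact repeat. In Ccng1 the element also matches 19 of 20 positions, in chr11:40755237-40755536 on the minus strand, and lies farther before the start than that of Cdkn1a. A match of 19 or more positions was found in 29 of 32851 windows (0.0883%). The Mdm2 window, chr10:117710709-117711008 on the minus strand, holds 1 exact repeat of 10 positions beginning 186 bases before the start, as did 8.36% of all windows, with no further repeat beside it. The best matches in the windows of Bbc3, Phlda3 and Eda2r were 17, 15 and 14 of 20 positions. At least 17 positions were matched in 6.29% of all windows, and a match describes letters only. Sites outside the windows were not looked for, so a window without a full match does not mean a gene without an element.

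Array values are log2 intensities, on which a difference of 1 is a doubling of brightness, and values below are means ± SD. None of the 7 genes passed the study threshold between CS and AIR lungs, which asks for more than 1.2-fold change together with p under 0.05 before adjustment, whereas 4.41% of all probe sets did (2.22% as higher and 2.19% as lower in CS). After Benjamini-Hochberg adjustment over all 40543 probe sets in limma, the adjusted p of the 7 genes lay between 0.663 and 0.933. The lowest adjusted p of any probe set was 0.348, so no probe set passed a false discovery rate of 10% either, while 7.49% had an unadjusted p under 0.05. Means were lower in CS lungs for 6 of the 7 genes, with a median difference of -0.16, while 49.2% of all measured genes were lower and their median difference was 0.00. The tests do not show that the genes were equal in both groups, and the 95% intervals of the ratio of CS to AIR reached from 0.685 at the lowest to 1.2 at the highest. The upper limit was highest for Mdm2, and those of the other 6 genes lay between 0.998 and 1.11.

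**Figure D1:**
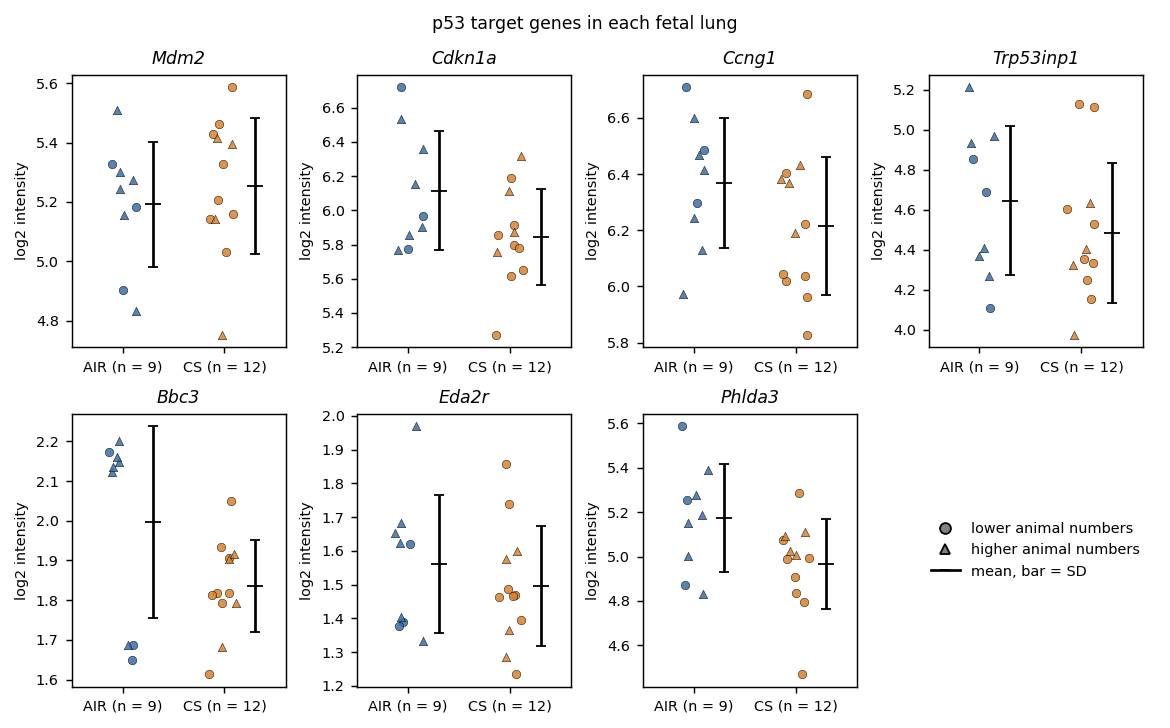
Log2 intensity (vertical axis) of each measured p53 target gene in every fetus, CS in orange and AIR in blue, with circles for the lower and triangles for the higher animal numbers and bars for the group mean. The groups overlap in every panel, and for Bbc3 6 of the 9 AIR fetuses sit above the highest CS fetus, at 2.05.

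Mdm2, which both marks p53 for degradation and is transcribed under its control, was the one gene with a higher mean after CS. CS lungs measured 5.25 ± 0.23 (SD, n = 12), from 4.75 through a median of 5.27 to 5.59. AIR lungs measured 5.19 ± 0.21 (SD, n = 9), from 4.83 through 5.25 to 5.51. The ranges nearly coincided, and CS male 5 held the lowest and CS male 2 the highest value of all fetuses. CS exceeded AIR by 0.06 (SE 0.10, limma p = 0.536, adjusted p = 0.933, exact permutation p = 0.532), which is less than the spread within either group.

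Cdkn1a encodes p21, the inhibitor of cyclin-dependent kinases through which p53 halts the cell cycle. Its values were 5.84 ± 0.28 (SD, n = 12) in CS lungs, from 5.27 through a median of 5.83 to 6.32. In AIR lungs they were 6.11 ± 0.35 (SD, n = 9), from 5.77 through 5.97 to 6.72. Of the 12 CS fetuses 10 lay below the AIR mean and 4 below the lowest AIR fetus, and 3 AIR fetuses lay above every CS fetus. The difference of -0.27 (SE 0.13) was the largest among the 7 genes, with limma p = 0.0540 and adjusted p = 0.671. An exact two-sided permutation test gave p = 0.0631, and p = 0.128 when fetuses were regrouped only within the number ranges. The p of Cdkn1a thus lay at the edge of the study threshold, and it fell below 0.05 under 6 of the 17 other settings tried. Over these settings the limma p ranged from 0.0186 to 0.396. Leaving out any 1 of AIR female 8, AIR males 2, 3 and 5, CS female 12 and CS males 1 and 5 also took Cdkn1a past the threshold, at differences of -0.31 to -0.29. Without AIR male 1, the highest fetus, the difference shrank to -0.19. The highest limma p with any 1 fetus left out was 0.136.

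Ccng1 encodes cyclin G1, a p53 target that takes part in the control of Mdm2 through a phosphatase. It measured 6.21 ± 0.25 (SD, n = 12) after CS, from 5.83 through a median of 6.21 to 6.68. AIR lungs measured 6.37 ± 0.23 (SD, n = 9), from 5.97 through 6.41 to 6.71. Only CS female 9 and CS female 10 lay below all AIR fetuses. The difference was -0.15 (SE 0.11, limma p = 0.159, adjusted p = 0.789, exact permutation p = 0.161).

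Trp53inp1, a stress-induced nuclear protein that works with p53 in arrest and death, measured 4.48 ± 0.35 (SD, n = 12) in CS lungs, from 3.97 through a median of 4.38 to 5.13. AIR lungs measured 4.65 ± 0.37 (SD, n = 9), from 4.11 through 4.69 to 5.22. Most CS fetuses, 10 of 12, lay below the AIR mean, yet CS male 1 and CS male 2 were among the highest of all fetuses at 5.12 and 5.13. The difference of -0.16 (SE 0.15) did not pass the test (limma p = 0.297, adjusted p = 0.866, exact permutation p = 0.315).

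Among the death genes, Bbc3 encodes PUMA, a BH3-only protein that opens the mitochondrial path to apoptosis. CS lungs measured 1.84 ± 0.12 (SD, n = 12), from 1.61 through a median of 1.82 to 2.05. AIR lungs measured 2.0 ± 0.24 (SD, n = 9), from 1.65 through 2.14 to 2.2. The AIR fetuses fell apart into 6 between 2.12 and 2.2, above every CS fetus, and 3 between 1.65 and 1.69, namely AIR male 1, AIR female 6 and AIR female 7. CS was lower by a difference of -0.16 (SE 0.08, limma p = 0.0691, adjusted p = 0.698), with an exact permutation p of 0.0606 and of 0.146 within the number ranges. Without the arrays high in genes of other tissues, which left 8 (6 CS and 2 AIR), the difference was -0.014 (limma p = 0.930). The 2 AIR fetuses left were AIR male 4 at 2.15, among the 6 high, and AIR female 6 at 1.65, among the 3 low. That value thus rests on 2 AIR fetuses that lie far apart, and no conclusion is drawn from it. This probe set is dim, with 44.8% of probe sets dimmer, and the whole span over fetuses was 1.5-fold.

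Eda2r, an X-linked receptor for a form of ectodysplasin, was dimmer still, with 29.3% of probe sets below it. Its values in CS lungs were 1.49 ± 0.18 (SD, n = 12), from 1.23 through a median of 1.47 to 1.86. In AIR lungs they were 1.56 ± 0.21 (SD, n = 9), from 1.33 through 1.62 to 1.97. The groups overlapped over most of their range, and the difference was -0.07 (SE 0.09, limma p = 0.454, adjusted p = 0.913, exact permutation p = 0.440). How far these low intensities of Bbc3 and Eda2r stand above the background of the array was not tested.

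Phlda3, whose product competes with the kinase Akt for membrane lipids and so restrains survival signalling, measured 4.97 ± 0.20 (SD, n = 12) after CS, from 4.47 through a median of 5.0 to 5.28. AIR lungs measured 5.17 ± 0.24 (SD, n = 9), from 4.83 through 5.19 to 5.59. All but 1 of the 12 CS fetuses lay below the AIR mean, and AIR male 1 and AIR female 7 lay above every CS fetus. The difference of -0.21 (SE 0.10) had the lowest p of the 7 genes, with limma p = 0.0476, adjusted p = 0.663 and exact permutation p = 0.0458. It stayed under the fold limit of 1.2, and regrouping within the number ranges gave an exact permutation p of 0.0754.

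**Figure D2:**
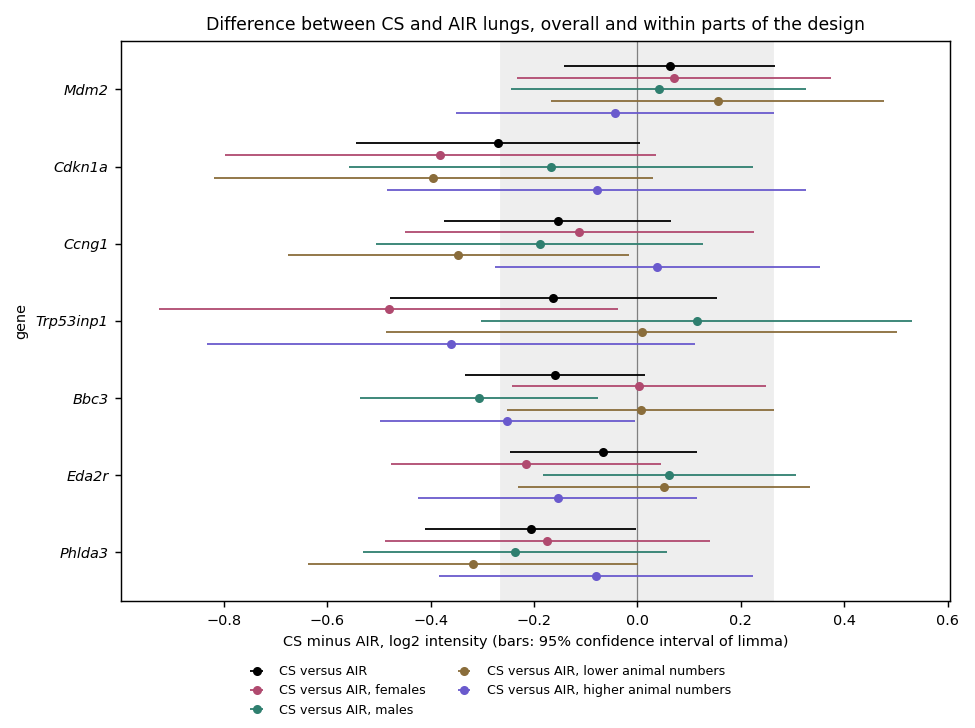
Difference between CS and AIR (log2 intensity, points) with its 95% interval (lines) for each p53 target gene, over all fetuses and within each sex and each range of animal numbers. The grey band marks differences within 1.2-fold. Over all fetuses 6 of 7 points lie below 0, and only the interval of Phlda3 ends below 0, at -0.00.

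With the exposure means removed, the SD over fetuses exceeded the size of the difference for all 7 genes, narrowly so for Bbc3 (0.18 against 0.16) and Phlda3 (0.22 against 0.21). Within CS lungs alone the SDs of Bbc3 and Phlda3, 0.12 and 0.20, were smaller than their differences. The SD of Cdkn1a was 0.31 and that of Trp53inp1 0.36, and both exceeded most probe sets of like brightness, at percentiles 80.3 and 78.6. Ccng1 stood at percentile 69.8, Mdm2 at 46.5 and Phlda3 at 43, so these varied between fetuses about as other probe sets did. Bbc3, at 9.49, and Eda2r, at 24.1, varied less than most. From the lowest to the highest fetus Cdkn1a spanned 2.73-fold, from CS female 9 to AIR male 1, and Trp53inp1 2.36-fold, from CS male 6 to AIR female 8. Phlda3 spanned 2.17-fold, and the other 4 genes between 1.5-fold and 1.84-fold.

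The study asked for effects that differ between the sexes. In females 1 of the 7 genes passed the study threshold, Trp53inp1, where 5.38% of all probe sets passed it and 2.89% did so as lower in CS. The 4 AIR females measured 4.97, 5.22, 4.86 and 4.37, and the 6 CS females lay between 4.15 and 4.63 with a median of 4.33. Thus 3 AIR females lay above all CS females and AIR female 9 lay among them. Trp53inp1 fell by 0.48 in females (SE 0.21, limma p = 0.0351, adjusted p = 0.848). The call was lost when any 1 of CS female 7, 9, 10 or 12 or AIR female 6, 7 or 8 was left out, with differences of -0.48 to -0.36.

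In males the single call was Bbc3, with 4.91% of all probe sets past the threshold and 2.39% as lower. The 5 AIR males measured 1.69, 2.17, 2.12, 2.15 and 2.16, and the 6 CS males lay between 1.61 and 1.82 with a median of 1.79. Apart from AIR male 1, every AIR male lay above every CS male. Bbc3 fell by 0.31 in males (SE 0.11, limma p = 0.0115, adjusted p = 0.857), and the difference stayed between -0.40 and -0.28 with any 1 fetus left out. Of the 4 AIR males high in Bbc3, 3 (AIR males 2, 3 and 5) are also among the 5 arrays that stood apart as high in heart muscle markers. With the mean of those markers as a covariate Bbc3 differed by -0.26 in males (limma p = 0.0448), under the fold limit, so the call was lost. In females the Bbc3 means were 1.92 in both groups.

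None of the 7 genes passed the study threshold for the difference of the CS effect between females and males, against 4.39% of all probe sets. For Trp53inp1 this difference was -0.60 (limma p = 0.0547) and for Bbc3 it was 0.31 (limma p = 0.0691), each with an adjusted p of 0.9998. Both lay at the edge of the threshold. The Trp53inp1 difference passed it when any 1 of AIR males 1 and 3, AIR female 9, CS males 3, 5 and 6 and CS female 11 was left out, at -0.76 to -0.63, and that of Bbc3 without AIR male 1, AIR female 8 or AIR female 9, at 0.38 to 0.40. Over all fetuses neither effect is shown to differ between the sexes. For Cdkn1a the means were lower after CS in females, by -0.38 (limma p = 0.0708), and in males, by -0.17 (limma p = 0.385). Phlda3 behaved alike, with -0.17 in females and -0.24 in males, and neither passed the test. Between males and females as such, with exposure and number range in the fit, none of the 7 genes passed the threshold (2.59% of all probe sets did), and X-linked Eda2r differed by -0.03 (limma p = 0.712).

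Exposure was also compared within each range of animal numbers. In the lower range, with 8 CS and 3 AIR fetuses, Ccng1 alone passed the study threshold, where 8.25% of all probe sets passed it and 4.87% as lower. The 3 AIR fetuses measured 6.30, 6.71 and 6.48, and the 8 CS fetuses lay between 5.83 and 6.68 with a median of 6.04. All but CS female 8 and CS male 2 lay below the lowest AIR fetus. Ccng1 fell by 0.35 there (SE 0.16, limma p = 0.0404, adjusted p = 0.527). The call was lost without any 1 of CS male 3 or 4, CS female 7, 9 or 10, AIR male 2 or AIR female 6, with differences of -0.35 to -0.24. Cdkn1a differed by -0.40 (limma p = 0.0663) and Phlda3 by -0.32 (limma p = 0.0508). Both values turned on single AIR fetuses, since without AIR male 1 they were -0.11 (limma p = 0.599) and -0.14 (limma p = 0.400), and without AIR male 2 they were -0.58 (limma p = 0.0193) and -0.50 (limma p = 0.00661), past the threshold.

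In the higher range, with 4 CS and 6 AIR fetuses, none of the 7 genes passed (4.27% of all probe sets did). The differences of Cdkn1a and Phlda3 were both -0.08, and that of Ccng1 was 0.04. Bbc3 differed by -0.25 (limma p = 0.0457), below the fold limit. Of the 6 AIR fetuses 5 lay between 2.12 and 2.2 and AIR female 7 at 1.69, and the 4 CS fetuses lay between 1.68 and 1.92. With any 1 fetus left out the Bbc3 difference ran from -0.33 to -0.20, and in 3 cases it passed the threshold. Trp53inp1 differed by -0.36 (limma p = 0.126). For the difference of the CS effect between the ranges none of the 7 genes passed, against 6.75% of all probe sets, and Ccng1 had the lowest p (-0.38, limma p = 0.0933, adjusted p = 0.814). The ranges as such moved none of the genes past the threshold (3.35% of all probe sets), with differences of the higher from the lower range between -0.07 and 0.13.

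Whether the genes rose and fell together from fetus to fetus was examined in pairs. Among the 21 pairs of the 7 genes, Pearson's r over 21 fetuses lay between -0.307 and 0.427 with a median of 0.0536, and 11 pairs were positive. None had a permutation p under 0.05, and the lowest adjusted p over the pairs was 0.659. The highest r, for Cdkn1a with Phlda3 (r = 0.427, permutation p = 0.0539; Spearman's rho = 0.265, permutation p = 0.243), rested on AIR male 1 and AIR female 7, without which r was 0.0221. The lowest was that of Cdkn1a with Bbc3 (r = -0.307, permutation p = 0.177; rho = -0.277, permutation p = 0.223), with r = -0.0844 without the same fetuses. With the means of exposure by number range removed, r lay between -0.631 and 0.388, and 2 pairs had a permutation p under 0.05, both with Bbc3 and both opposed in direction. Cdkn1a with Bbc3 gave r = -0.631 (permutation p = 0.0115, adjusted p = 0.194; rho = -0.455, permutation p = 0.0809), and r was -0.565 without AIR male 1 and CS female 9. Without removal of these means its r was -0.642 within CS and -0.573 within AIR lungs. It was -0.666 in the lower and -0.246 in the higher range. Trp53inp1 with Bbc3 gave r = -0.549 (permutation p = 0.0185, adjusted p = 0.194; rho = -0.604, permutation p = 0.0109, adjusted p = 0.229), and r was -0.514 without CS male 1 and CS male 2. Without removal of the means its r was -0.747 in the lower and 0.115 in the higher range. It was -0.425 within CS and -0.441 within AIR lungs. Neither pair passed the adjustment over the pairs.

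Likeness of pattern was measured by Pearson's r over the 21 arrays. Cdkn1a went most closely with Tmem205 (r = 0.818), Mturn (r = 0.793) and Lrrc46 (r = 0.779). Ccng1 went with Myh7, a heart muscle myosin (r = 0.849), Ids, a lysosomal sulfatase (r = 0.782), and Cycs, cytochrome c (r = 0.776). Phlda3 went with Pmp22 (r = 0.736), Rasal2 (r = 0.692) and Gja4, an endothelial connexin (r = 0.687). For Mdm2 the likest gene was Ano1, a chloride channel (r = 0.732), for Bbc3 Tmem263 (r = 0.706), for Trp53inp1 Mir666 (r = 0.702) and for Eda2r Ess2 (r = 0.650). These were picked as the highest of all genes with a mean of at least 3 and are given as a description.

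Lung markers were strong in all arrays, and genes of neighbouring tissue were raised in some. The summed level of 8 heart muscle markers, taken as their mean, ranged from 4.92 to 7.83 in CS and from 5.17 to 8.0 in AIR lungs, and the arrays of AIR males 2, 3 and 5, CS female 8 and CS male 6 stood apart as high. Ccng1 in these 5 arrays had a median of 6.60 and in the other 16 a median of 6.23. Over all 21 fetuses it rose with the heart muscle mean (r = 0.671, permutation p = 0.00084, adjusted p = 0.0647). Its rho was 0.721 (permutation p = 0.00021), which passed the adjustment over 77 relations of genes and marker lists (adjusted p = 0.0162). Without AIR male 3 and CS female 8 r was 0.547. Within those 16, Ccng1 still rose with the heart muscle mean (r = 0.656, permutation p = 0.00582; rho = 0.688, permutation p = 0.0043; adjusted p = 0.0815 and 0.0602 over 14 relations), and r was 0.637 without the 2 farthest fetuses. With that mean as a covariate the Ccng1 call in the lower range was lost, at -0.22 (limma p = 0.133), while Cdkn1a then passed there at -0.54 (limma p = 0.00998). Oesophagus markers, with 5 of 6 measured, ranged from 1.61 to 4.84 in CS and from 1.62 to 4.41 in AIR lungs, and AIR male 1 and AIR female 7, the arrays highest in Cdkn1a at 6.72 and 6.53, were among 5 that stood apart as high. Cdkn1a had a median of 6.19 in these 5 arrays and of 5.83 in the other 16. Over all 21 fetuses it rose with the oesophagus mean (r = 0.530, permutation p = 0.0124, adjusted p = 0.192). Its rho was 0.573 (permutation p = 0.0078, adjusted p = 0.200). With the means of exposure by range removed r was 0.512 (permutation p = 0.0328, not adjusted). Within the other 16 arrays r was 0.199 (permutation p = 0.450).

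**Figure D3:**
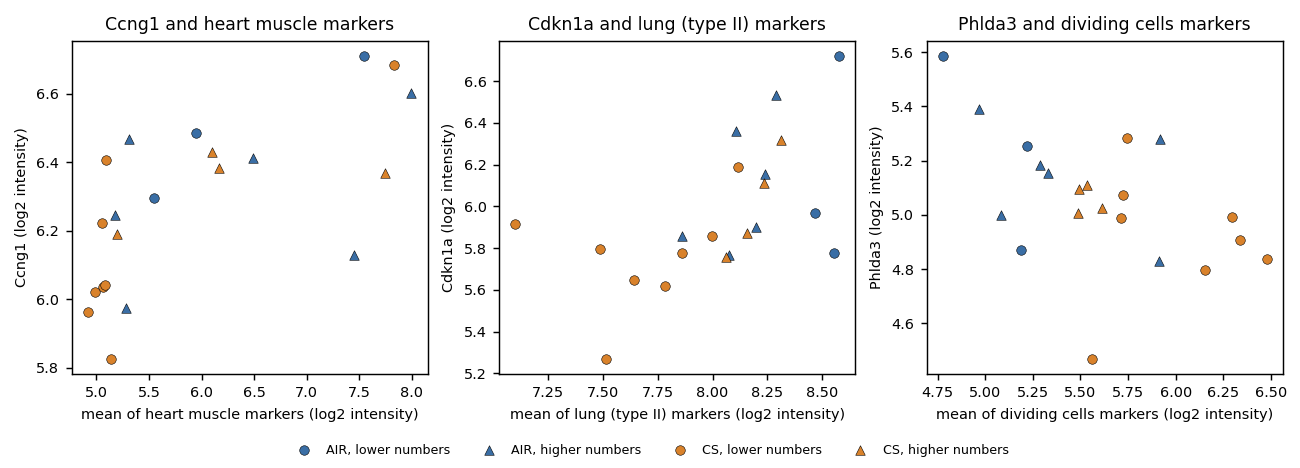
Ccng1 against the mean of the heart muscle markers, Cdkn1a against that of the type II cell markers and Phlda3 against that of the dividing cell markers, all in log2 intensity, with 1 point per fetus (orange CS, blue AIR, circles lower and triangles higher animal numbers). Ccng1 and Cdkn1a are higher where the marker mean is higher, and Phlda3 is lower where it is higher.

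Markers of lung cells moved with exposure too. Of 6 markers of type II cells, the source of surfactant in the alveoli, 5 passed the study threshold as lower after CS, and their mean ranged from 7.10 to 8.31 in CS and from 7.86 to 8.58 in AIR lungs. Cdkn1a was higher in fetuses with a higher type II mean (r = 0.569, permutation p = 0.00736, adjusted p = 0.176; rho = 0.622, permutation p = 0.00302, adjusted p = 0.116; 77 relations of genes and marker lists), and r was 0.699 without CS female 7 and CS male 3. Within the lower and the higher range r was 0.545 and 0.628, so the direction was the same in both, though the relation failed the adjustment, and r was 0.366 with the means of exposure by range removed. The mean of the airway markers gave Cdkn1a a like value (r = 0.588, permutation p = 0.00556, adjusted p = 0.176; rho = 0.5, permutation p = 0.0224), and 0.399 with those means removed. Trp53inp1 gave r = 0.400 with the airway mean (permutation p = 0.0737, adjusted p = 0.292). With the means of exposure by range removed its r was 0.679 (permutation p = 0.00083, not adjusted), the lowest such p of the 77 relations. The type II and endothelium means then gave it like values, 0.581 (permutation p = 0.00972) and 0.569 (permutation p = 0.0186), so the relation was not particular to the airway list. All 9 measured of 10 markers of dividing cells passed as higher after CS, with means from 5.49 to 6.48 in CS and from 4.78 to 5.92 in AIR lungs. Phlda3 was lower in fetuses with more of these (r = -0.513, permutation p = 0.0173, adjusted p = 0.201; rho = -0.490, permutation p = 0.0259), and r was -0.332 without CS female 7 and AIR male 1. Both measures differed with exposure, and with the means of exposure by range removed r was -0.242. With the dividing cell mean as a covariate the differences between CS and AIR were -0.14 for Cdkn1a (limma p = 0.396), -0.09 for Phlda3 (limma p = 0.436) and -0.26 for Bbc3 (limma p = 0.0166). The part of these cell types in the levels was not otherwise tested.

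A wider list held 57 further genes of the p53 pathway, of which 51 were measured. In CS against AIR lungs 3 were higher and 2 lower past the study threshold, beside 2.22% and 2.19% of all probe sets, and the median difference of the list was 0.00. Among 15 regulators of p53 none passed. The lowest p belonged to Chek1, a checkpoint kinase (0.21, limma p = 0.122), and Trp53bp1, a protein of double-strand break repair (0.18, limma p = 0.123). Of 13 measured death targets none passed either, and 2 of the 13 differences were below 0. Below 0 were also 7 of 15 regulators, 6 of 13 arrest and repair targets and 8 of 10 metabolic and stress targets. For the whole list it was 23 of 51, beside 49.2% of all measured genes. Whether these counts differ from those of other genes was not tested. Bid, a BH3-only protein, differed by 0.17 (limma p = 0.0974) and Siva1 by 0.15 (limma p = 0.130).

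Arrest and repair targets, 13 of 15 measured, held 2 calls, both higher after CS. Psrc1, a spindle protein, measured 3.35 ± 0.34 (SD, n = 9) in AIR and 4.02 ± 0.48 (SD, n = 12) in CS lungs. It rose by 0.67 (SE 0.18, limma p = 0.00106, adjusted p = 0.445). Gtse1, a microtubule-binding protein of dividing cells that also restrains p53, rose by 0.44 (SE 0.17, limma p = 0.0152, adjusted p = 0.544). Its mean over all arrays was low, at 2.88. Both are genes of mitosis as well as of the p53 pathway, and they rose beside the 9 dividing cell markers above. With the dividing cell mean as a covariate the differences were 0.19 for Psrc1 (limma p = 0.214) and 0.09 for Gtse1 (limma p = 0.599). That mean itself differed with exposure (5.85 in CS and 5.30 in AIR lungs), so this fit cannot separate exposure from the dividing cell markers. The arrest genes Rprm (-0.20, limma p = 0.0454, under the fold limit) and Btg2 (-0.18, limma p = 0.0648) did not pass.

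Metabolic and stress targets, 10 of 14 measured, held the other 3 calls. Thbs1, the matrix protein thrombospondin 1, rose by 0.51 (SE 0.18, limma p = 0.00933, adjusted p = 0.516). Igfbp3, which binds insulin-like growth factors, measured 5.36 ± 0.43 (SD, n = 9) in AIR and 4.73 ± 0.56 (SD, n = 12) in CS lungs. It fell by 0.63 (SE 0.21, limma p = 0.00694, adjusted p = 0.490). Tigar, a phosphatase that slows glycolysis, fell by 0.33 (SE 0.11, limma p = 0.00666, adjusted p = 0.482) at a dim level of 1.71 against 2.04. Without AIR male 2, Tigar differed by -0.25 and missed the fold limit. With the dividing cell mean as a covariate Thbs1 differed by 0.18 (limma p = 0.362), Igfbp3 by -0.17 (limma p = 0.436) and Tigar by -0.21 (limma p = 0.131). The limit of that covariate given above holds here too. Sesn2, a stress-induced inhibitor of mTORC1 signalling, differed by -0.17 (limma p = 0.245) and Gpx1, glutathione peroxidase 1, by -0.07 (limma p = 0.262).

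In the lower range of animal numbers 5 of the 51 genes were higher and 2 lower past the study threshold, beside 3.38% and 4.87% of all probe sets, namely the 5 genes above with Chek1 (0.43, limma p = 0.0431) and Siva1 (0.37, limma p = 0.0130). A false discovery rate of 10% was passed there by 1.05% of all probe sets and within the list by Psrc1, which differed by 1.02 (limma adjusted p = 0.0719), and Igfbp3, which differed by -1.19 (limma adjusted p = 0.0571). In the higher range the differences of Psrc1 and Igfbp3 were 0.24 and -0.03, and none of the 51 genes passed the study threshold. The difference between the ranges was -1.16 for Igfbp3 (limma p = 0.00689, adjusted p = 0.490) and 0.78 for Psrc1 (limma p = 0.0355, adjusted p = 0.687). Without any 1 of CS female 11 or 12, AIR male 1 or 5 or AIR female 8 the latter p exceeded 0.05, with differences of 0.58 to 0.75.

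**Figure D4:**
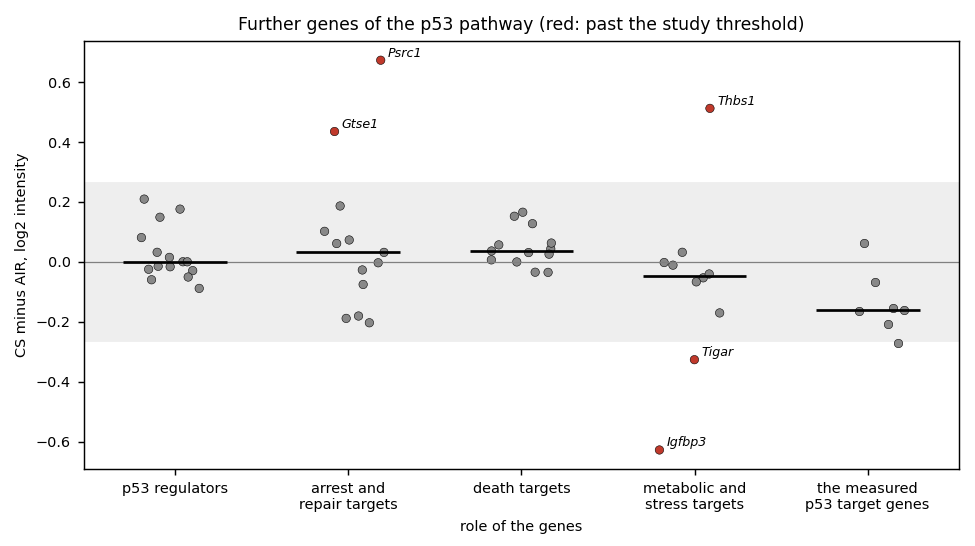
Difference between CS and AIR (log2 intensity, 1 point per gene) of the further p53 pathway genes by role, with the 7 p53 target genes at the right. Red points passed the study threshold, black lines are medians and the grey band marks differences within 1.2-fold. The 5 red points are Psrc1, Gtse1, Thbs1, Igfbp3 and Tigar, and none of the 7 target genes is red.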

How the data were processed

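Scans were summarised by the authors with Affymetrix Expression Console 1.3.0.187 by RMA, which corrects background, equalises the distributions of the arrays and condenses probes by median polish. As deposited, each probe set has a log2 intensity. They ranged from 0.045 to 12.594 with array medians of 2.115 to 2.203, and correlations between arrays were 0.950 to 0.971. The authors left out 3 further AIR arrays, which were not analysed here. Of 41345 probe sets 802 redundant ones were removed. In the platform annotation, which can be old, 23521 have 1 gene symbol, 1820 more than 1 and 16004 no symbol.

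CS was compared with AIR by limma 3.58.1 (R 4.3.3) over all fetuses, by sex and by animal number range, with Benjamini-Hochberg adjustment over all probe sets. The ranges were divided at the widest gap in the labels' numbers. Permutation tests were two-sided, ran in Python 3.11.15 (scipy 1.17.1) and were exact, or used 100000 resamples for correlations. Correlations after removal of exposure by range means were permuted within those cells. Of 36 planned pairs of members 21 could be formed. Relations to marker lists were added after the data were seen. The members, lists and tests were chosen with earlier results of these data known. Members were named in every comparison, further pathway genes where past the threshold or of the lowest p in their role, and like genes by the 3 highest r. Fits were tested on simulated arrays. The number of arrays limits precision. Marker lists of type I and airway cells, endothelium, mesenchyme, skeletal muscle, thymocytes and liver differed between CS and AIR by -0.15, -0.41, -0.16, 0.01, -0.50, 0.35 and 0.16.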

Additional observations from a re-analysis of the deposited data

Results flagged for a closer look

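Within groups of 4 to 10 fetuses, 56 sets of values of the 7 genes were examined for a fetus far from the rest, and 3 were found. Chance gives about 1 in 20. Ccng1 in AIR female 7 was 5.974, while the other AIR females measured 6.413 to 6.484. Bbc3 in AIR male 1 was 1.688, while the other AIR males measured 2.124 to 2.173. Bbc3 in AIR female 7 was 1.687, while the other AIR fetuses of the higher range measured 2.124 to 2.2. AIR male 1 and AIR female 7 are both among the arrays high in oesophagus markers, with list means of 3.92 and 4.41. In the 5 arrays that stood apart as high in these markers Bbc3 had a median of 1.69 and Ccng1 of 6.19, and in the other 16 the medians were 1.91 and 6.39. Within those 16, r with the oesophagus mean was -0.0200 for Bbc3 (permutation p = 0.938, adjusted p = 0.938; rho = -0.132, permutation p = 0.624) and 0.345 for Ccng1 (permutation p = 0.193, adjusted p = 0.515; rho = 0.221, permutation p = 0.408). AIR female 6, the third AIR fetus low in Bbc3 (1.649), was not high in them. None of the 14 differences of the CS effect between sexes or ranges passed the test.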

How the results depend on the processing

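Other than by leaving out single fetuses, 614 recomputed differences of single genes kept their direction and their side of the study threshold, 11 changed sign, 11 came to pass it and 11 no longer passed it. Replicate numbers do not pair fetuses, since the deviations of same-numbered CS and AIR fetuses correlated by -0.0723 to 0.132 and number 6 is male in CS and female in AIR. The fit with a replicate block over same-numbered fetuses gave Cdkn1a -0.30 (limma p = 0.0394), so that 1 of the 7 genes passed, and it changed no other call among them. The count was also 1, again Cdkn1a, with probe sets of 1 symbol, with a variance trend, with median centring and with a heart muscle or thymocyte covariate. With a false discovery rate of 10% the probe sets called numbered 0 in CS against AIR, in females, in males, in the higher range and for females minus males, 424 in the lower range, 19 between the ranges, 13 between the sexes as such and 1 between the ranges as such, and 0 of the 7 genes passed anywhere. With probe sets of 1 symbol 1095 of 23448 were called in CS against AIR. With means of at least 3, where Bbc3 and Eda2r were not tested, the counts were 966 in CS against AIR, 1042 in females, 808 in males, 539 for females minus males, 2047 in the lower and 606 in the higher range, 1512 between them, and 367 and 468 for sex and range as such. Of the 5 members tested then, 0 passed in males and 2 in the lower range, beside 2047 of 14689 probe sets there. Phlda3 joined Ccng1 in the lower range, as it did among the 7 genes with a variance trend and with median centring (2 each). The wider list then held 35 genes, without Gtse1, Tigar, Chek1, Bid and Sesn2 among others. It had 2 higher and 1 lower in CS against AIR and 3 higher and 1 lower in the lower range. Without arrays high in other tissue (8 left, 6 CS and 2 AIR) Mdm2 turned to -0.022, and the wider list had 1 higher and 1 lower. The calls lost there kept their size, at 0.38 for Gtse1, 0.57 for Thbs1 and -0.58 for Igfbp3, with fewer arrays in the fit. With the dividing cell covariate it had 0 higher and 1 lower, and Chek1, Trp53bp1 and Siva1 turned to -0.022, -0.0020 and -0.051. Covariates added after seeing the data took the calls in males to 0 (heart muscle, Bbc3 -0.26) and in females to 0 (oesophagus, Trp53inp1 -0.46), and the wider list to 1 lower in the higher range (heart muscle). With the heart muscle covariate Bbc3 in females, Mdm2 in males, Ccng1 between the sexes and Trp53inp1 in the lower range turned to -0.0016, -0.0096, -0.13 and -0.043. With the oesophagus covariate Bbc3 in females, Mdm2 between the sexes and Bbc3 in the lower range turned to -0.047, -0.028 and -0.022. The causes were not tested.

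With 1 fetus left out, the genes past the threshold numbered 0 to 1 in CS against AIR, 0 to 2 in females, 1 to 2 in males, 0 to 2 for females minus males, 0 to 2 in the lower range, 0 to 1 in the higher range and 0 to 1 between them. The wider list had 1 to 2 lower in CS against AIR, 3 to 6 higher in the lower range, and 0 to 1 higher and 0 to 2 lower in the higher range. Differences near 0 changed sign, with these ranges. In females Bbc3 ran from -0.087 to 0.097, and in males Mdm2 from -0.039 to 0.13 and Eda2r from -0.0024 to 0.12. For females minus males Ccng1 ran from -0.044 to 0.16, Mdm2 from -0.060 to 0.11 and Phlda3 from -0.050 to 0.14. In the lower range Bbc3 ran from -0.088 to 0.17 and Trp53inp1 from -0.21 to 0.16. In the higher range Ccng1 ran from -0.028 to 0.098, Cdkn1a from -0.18 to 0.0083, Mdm2 from -0.12 to 0.099 and Igfbp3 from -0.18 to 0.13. Between males and females Ccng1 ran from -0.030 to 0.078, Cdkn1a from -0.0095 to 0.11, Eda2r from -0.076 to 0.014, Phlda3 from -0.067 to 0.031 and Trp53inp1 from -0.10 to 0.041. Between the ranges Ccng1 ran from -0.0066 to 0.093, Eda2r from -0.011 to 0.071, Mdm2 from -0.088 to 0.041, Phlda3 from -0.011 to 0.12 and Trp53inp1 from -0.17 to 0.018. The number of arrays and the low intensity of Bbc3, Eda2r, Tigar, Gtse1, Chek1, Bid and Sesn2 limit what could be seen.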
